A study of Canis lupus familiaris with 6 samples.

Results

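The insulin-like growth factor (IGF) system was described in drilled bone of the beagle dog mandible through 9 genes. They were the ligands IGF1 and IGF2, the receptor IGF1R and the binding proteins IGFBP2 to IGFBP7. Every probe set annotated to one of these symbols alone was taken, which gave 9 of the 15115 genes and 19 of the 42860 probe sets on the array, and no member probe set was shared with another gene. Holes of 4.5 mm diameter and 8 mm length were drilled in the mandibles of dogs aged 9 years, 3 months after premolars had been extracted. They were left without a filler (control) or implanted with beta-TCP (beta-tricalcium phosphate), a ceramic used as a bone filler that the body resorbs. Specimens of whole tissue were collected 4, 7 and 14 days later and measured on Affymetrix arrays. The 6 groups (control and beta-TCP on each day) hold 1 array each, so a difference on a single day has no replicate error and no test. How many animals were used, and which specimens shared an animal, is not given in the sources used here. All groups share the extraction, the healing period, the drilling and the age, and there was no undrilled bone.

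IGF1 and IGF2 are secreted peptides that signal mainly through the receptor tyrosine kinase IGF1R, and in bone they act on osteoblast growth, survival and matrix synthesis. Most IGF outside cells is held by binding proteins, which carry it, keep it from the receptor or release it when they are cleaved. IGFBP7 is a related secreted protein that binds IGF weakly. In liver and bone, growth hormone acting on its receptor GHR is a main inducer of IGF1.

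Values are given as multiples of the array median over all probe sets, so 1 is the median probe set of that array. Differences are on the scale log2(value + 1), beta-TCP minus control, which understates the change of genes near or below the median. A difference is called at least 2-fold where it reaches 1 on this scale, so larger plain ratios of low values can go uncounted. Levels of different probe sets are not comparable with each other. The array labelled beta-TCP day 14 stood apart, with Spearman correlations of 0.723 to 0.779 with the other 5, which correlated at 0.832 to 0.905 among themselves. Calls from fits that include it are given with and without it, a setting chosen after seeing the data, and day 14 differences rest on it. Without it day 14 rests on the control array alone, so contrasts with day 14 are then given as differences with no call. The day 14 arrays were also deposited on another scale, so an effect of day 14 and one of its processing cannot be told apart. For the bone label, the values of COL1A1, COL1A2, SPARC and SPP1 lay at or above percentile 98.7 of all probe sets on every array, while the other 6 markers of osteoblasts and osteocytes lay lower or varied more. These were IBSP at percentile 78.0 to 99.3, ALPL at 62.2 to 94.8, RUNX2 at 57.1 to 63.7, DMP1 at 26.3 to 68.2, BGLAP at 18.8 to 75.5 and MEPE at 6.95 to 81.1.

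**Figure D1:**
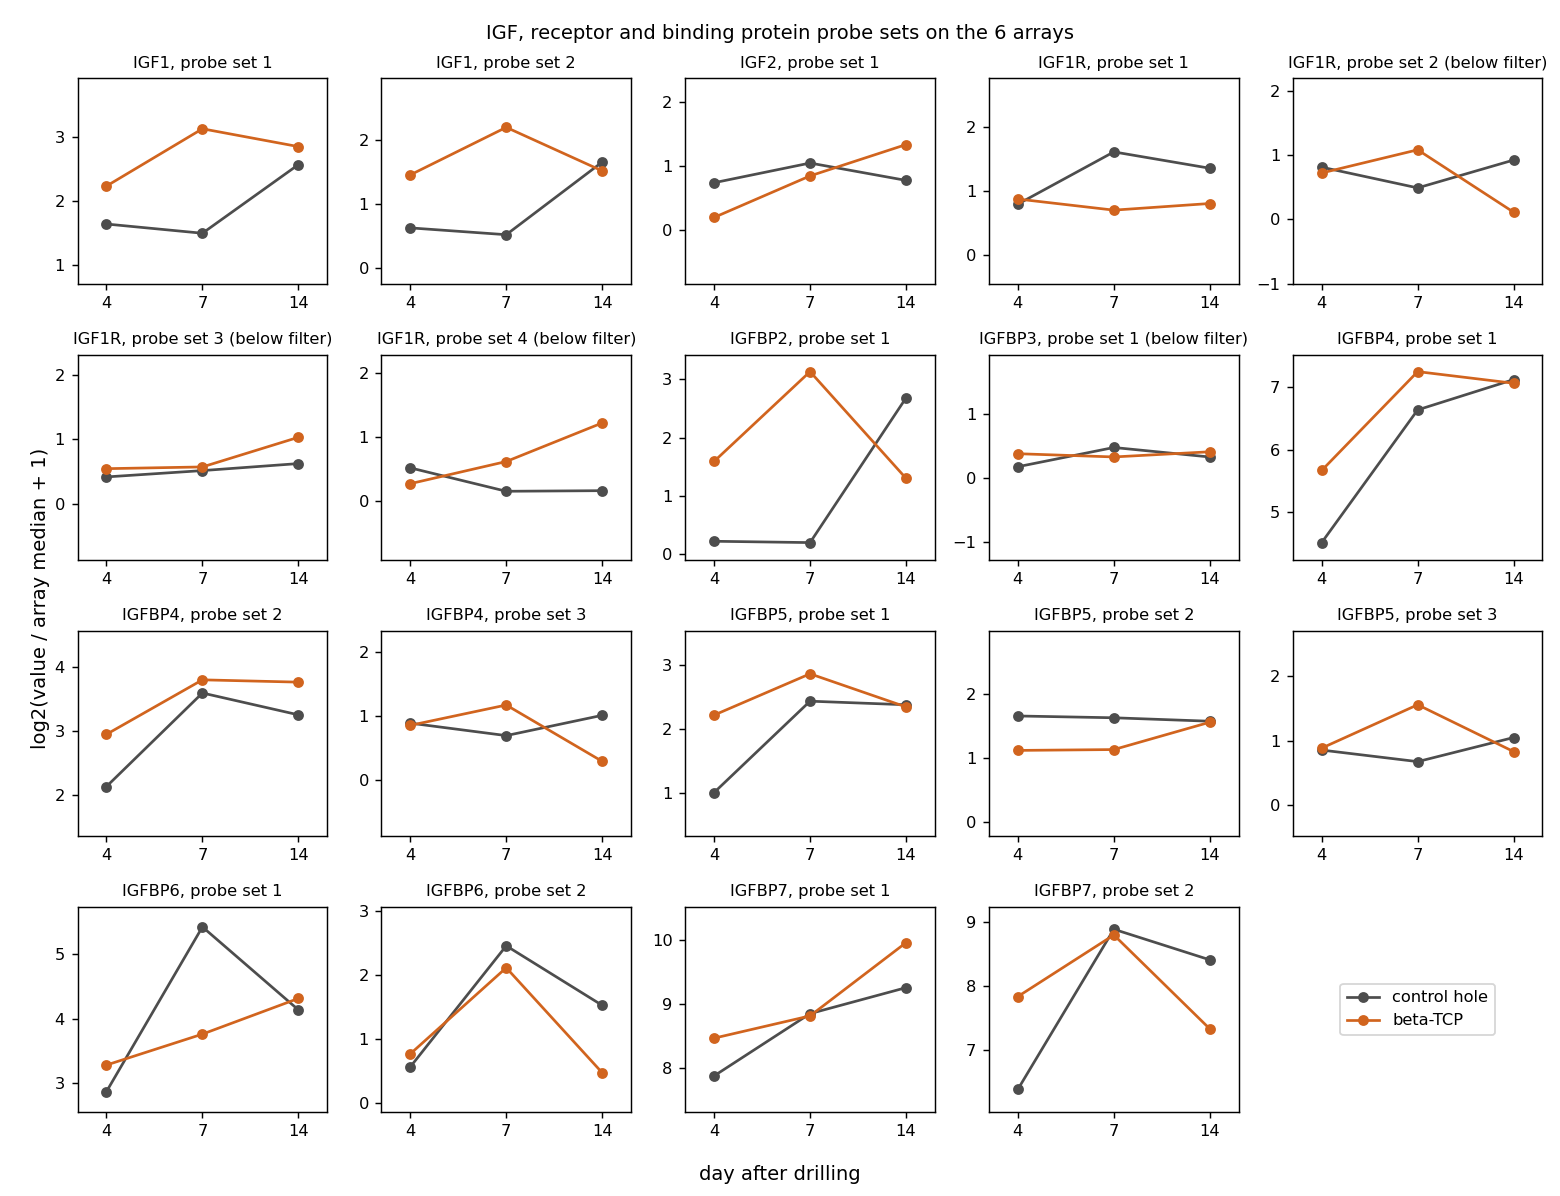
Levels of the 19 probe sets, as log2 of the value over the array median plus 1, against day, with 1 array a point. Probe sets of a gene are numbered from the highest to the lowest mean, every panel spans at least 3.2 log2 units, and lines join different specimens. IGF1 and IGFBP2 were highest on the beta-TCP day 7 array, and both were low on the control arrays of days 4 and 7.

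The ligand IGF1 read higher with beta-TCP at days 4 and 7. On the first of its 2 probe sets (Cfa.3888.1.S1_s_at) day 4 gave 2.11 in the control and 3.68 with beta-TCP, day 7 gave 1.81 and 7.70, and day 14 gave 4.91 and 6.18. The second (Cfa.3888.1.S1_at) gave 0.542 and 1.73, 0.432 and 3.57, and 2.14 and 1.85. Both thus had their lowest value on the control day 7 array and their highest on the beta-TCP day 7 array. The log2 differences at day 7 were 1.63 and 1.67, ratios of 4.25 and 8.26. At day 4 they were 0.59 and 0.83, and at day 14 they were 0.28 and -0.14, with opposite signs. On the control arrays IGF1 differed between days 7 and 14 by 1.07 and 1.13, so that the control specimen of day 14 lay near the beta-TCP specimen of that day. The 2 probe sets share a name stem, and their agreement is not taken as independent. Other pairs with a shared stem differed in sign, IGFBP5 by 1.21 and -0.54 at day 4 and IGFBP4 by 0.51 and -0.72 at day 14.

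In limma's additive fit of day and treatment over all 6 arrays, the average beta-TCP effect on IGF1 was 0.83 ± 0.35 (SE, 3 pairs of arrays) on the first probe set and 0.79 ± 0.38 on the second. The first had an unadjusted p of 0.0409, and neither passed over the 25608 probe sets tested (adjusted p = 1, limma). Without the day 7 pair the averages were 0.44 and 0.34, and without the beta-TCP day 14 array 1.11 and 1.25. The 95% interval of the first ran from 0.04 to 1.62. Tissue was measured as a whole, so more cells of a type and more RNA per cell cannot be told apart, here and in all results below.

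IGF2, the other ligand, had 1 probe set (Cfa.17874.1.S1_s_at) and lay near or below the array median on every array. Its values were 0.666 and 0.144 at day 4 (control, beta-TCP), 1.06 and 0.793 at day 7, then 0.708 and 1.52 at day 14. The sign of its difference changed between days, from -0.54 at day 4 and -0.20 at day 7 to 0.56 at day 14. The average effect was -0.06 ± 0.33 (SE, 3 pairs, adjusted p = 1, limma), and its sign turns when arrays are scaled to their 90th percentile (0.00066).

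The receptor IGF1R, the tyrosine kinase that both ligands activate, had 4 probe sets, and 3 of them fell below the expression filter, a mean at the 40th percentile of all probe sets. The one that passed (CfaAffx.16985.1.S1_s_at) read 0.730 and 0.828 at day 4, 2.04 and 0.621 at day 7, and 1.55 and 0.742 at day 14. It was therefore higher on the control arrays of days 7 and 14 (differences of -0.91 and -0.55) but not at day 4 (0.08). The other 3 probe sets did not share that order. At day 7 they differed by 0.06 to 0.59 in the other direction, and at day 14 by -0.81, 0.41 and 1.06. The deposited table has no detection calls, so it does not show which of these weak values lie above background.

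IGFBP2, a binding protein secreted by osteoblasts among other cells, had the largest single-day difference of the 19 probe sets. Its 1 probe set (CfaAffx.22360.1.S1_at) read 0.169 in the control and 2.02 with beta-TCP at day 4, and 0.151 and 7.75 at day 7. At day 14 the order turned, with 5.41 in the control and 1.47 with beta-TCP. In percentiles of all probe sets, the control arrays lay at 19.2, 18.5 and 77.9 on the 3 days, and the beta-TCP arrays at 63.1, 80.9 and 60.4. The log2 differences were 1.37, 2.93 and -1.38. The ratio of 51.3 at day 7 stands over a control value far below the array median. The average effect over 3 days was 0.97 ± 0.67 (SE, adjusted p = 1, limma). In the fit without the beta-TCP day 14 array, which leaves days 4 and 7 and 1 residual degree of freedom, it was 2.15 ± 0.36 (adjusted p = 0.0176, limma), where 0.422% of all probe sets passed. Without the day 7 pair it was -0.0051.

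**Figure D2:**
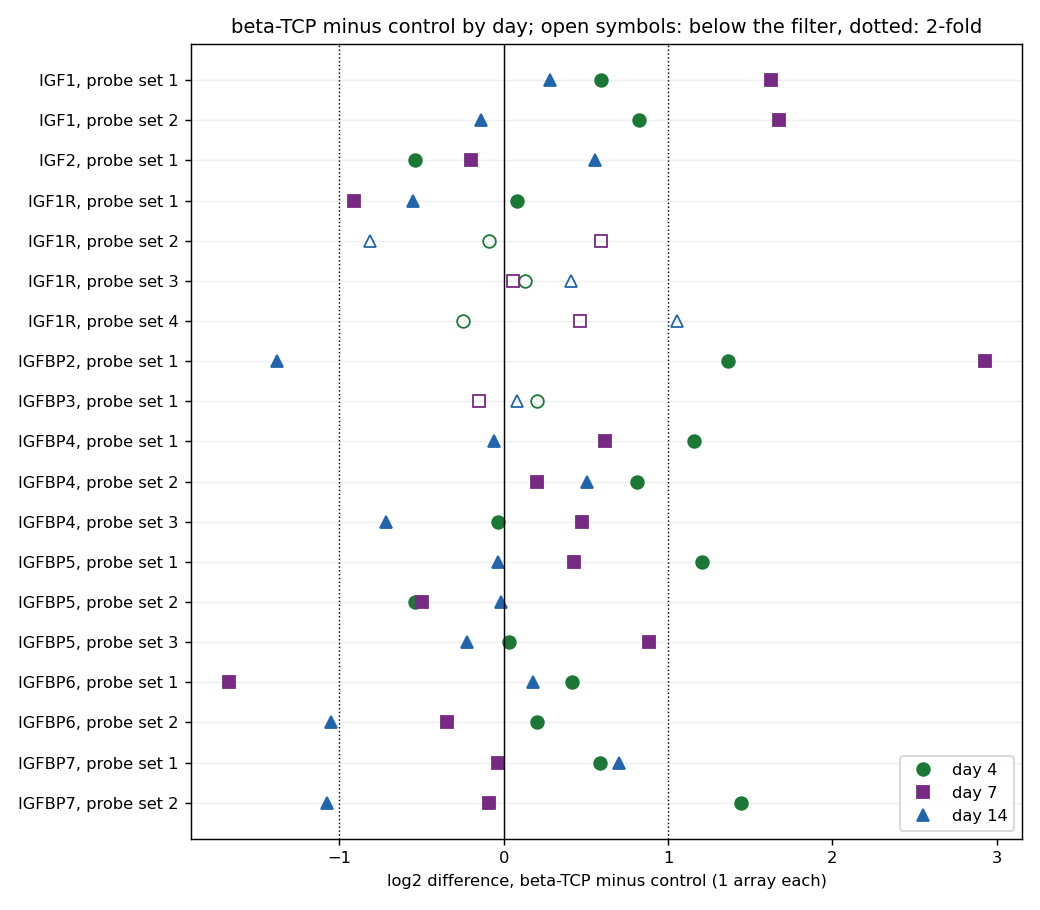
Log2 difference, beta-TCP minus control, of each probe set on each day (1 array each), with dotted lines at 2-fold and open symbols for probe sets below the expression filter. Both IGF1 probe sets and IGFBP2 lie past 2-fold at day 7, the first IGFBP6 probe set lies at -1.67 on that day, and IGFBP2 lies on opposite sides at days 7 and 14.

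IGFBP4, a binding protein known mainly as an inhibitor of IGF action, rose with time on its first probe set (Cfa.17073.1.S1_at). The values were 21.8 and 49.8 at day 4 (control, beta-TCP), 98.7 and 152 at day 7, then 139 and 133 at day 14. The day 4 control array was lowest, and both day 4 arrays lay below the other 4. Averaged over both treatments, day 14 minus day 4 was 2.01 ± 0.41 (SE, 2 arrays a day, adjusted p = 0.0383, limma), the one call among the 15 member probe sets tested, where 3.27% of all 25608 probe sets passed and 0.773% passed as higher. That call was lost with a pseudocount of 0.25 or 16 or with no filter (adjusted p = 0.0935, 0.134 and 0.126, limma). Day 14 rests on the control array alone in the fit without the beta-TCP day 14 array, so only its difference is given (2.48). Day 7 minus day 4 was 1.86 ± 0.41 (adjusted p = 0.161, limma). Without that array, with 1 residual degree of freedom, it was 1.86 ± 0.32 (adjusted p = 0.00220, limma), where 7.34% of all probe sets passed.

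The other IGFBP4 probe sets bear on this result. The second (CfaAffx.24660.1.S1_s_at) read 3.40 and 6.74 at day 4, 11.1 and 13.0 at day 7, and 8.56 and 12.6 at day 14. Its day 4 arrays were again the lowest pair, and day 14 minus day 4 was 0.97 ± 0.36 (adjusted p = 0.174, limma). The third stayed between 0.226 and 1.25 and showed no such order. Its lowest value, on the beta-TCP day 14 array, lay at percentile 24.5, against 1.02 in the control of that day (difference -0.72). With beta-TCP the first 2 probe sets were higher at day 4 (1.16 and 0.81), a ratio of 2.29 and 1.98, and differed less at day 7 (0.61 and 0.21). At day 14 they had opposite signs (-0.06 and 0.51). The average beta-TCP effect was 0.57 ± 0.33 and 0.51 ± 0.30 (SE, 3 pairs, adjusted p = 1 for both, limma).

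IGFBP5, an abundant binding protein of bone that also binds matrix and mineral, had 3 probe sets with different courses. The first (CfaAffx.22339.1.S1_s_at) read 1.02 and 3.66 at day 4, 4.42 and 6.29 at day 7, then 4.22 and 4.10 at day 14. The control array of day 4 was lowest, and the difference was 1.21 at day 4, 0.43 at day 7 and -0.03 at day 14. The second probe set had the opposite sign, -0.54 at day 4 and -0.50 at day 7, within a narrow range from 1.16 to 2.14. The third differed by 0.03, 0.89 and -0.22 on the 3 days. On the dog assembly UU_Cfam_GSD_1.0 in RefSeq, IGFBP5 and IGFBP2 are direct neighbours among protein-coding genes (0 genes between them), as are IGFBP3 and IGFBP1. IGFBP2 and the first IGFBP5 probe set shared a higher beta-TCP value at days 4 and 7, but on the control day 7 array IGFBP5 had reached 4.42 while IGFBP2 read 0.151.

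IGFBP6, a binding protein with a preference for IGF2, was highest in the control hole at day 7. On the first probe set (Cfa.7678.1.A1_at) the values were 6.26 and 8.69 at day 4, 42.1 and 12.5 at day 7, then 16.6 and 18.9 at day 14. The control day 7 value lay above every other array, 3.36 times the beta-TCP value of that day (difference -1.67). The second probe set (CfaAffx.11510.1.S1_at) had the same highest array but a smaller gap at day 7, 4.47 against 3.32 (-0.34). At day 14 the 2 probe sets differed in sign, 0.18 and -1.05. Between days 4 and 7 the fit gave 1.53 ± 0.52 and 1.62 ± 0.41 (SE, adjusted p = 0.328 and 0.214, limma). Without the beta-TCP day 14 array, with 1 residual degree of freedom, both passed (adjusted p = 0.0309 and 0.00581, limma), where 7.34% of all probe sets did. By treatment, the first probe set changed by 2.57 in the control and 0.48 with beta-TCP, and the second by 1.89 and 1.34.

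IGFBP7 lay above percentile 97.9 of all probe sets on all 6 arrays on both of its probe sets. The first (Cfa.2101.1.A1_at) read 235 and 354 at day 4, 461 and 450.2 at day 7, then 611 and 995 at day 14. The second (CfaAffx.4359.1.S1_s_at) read 82.8 and 228, 472 and 444, and 339 and 160.0. Both had their lowest value on the control day 4 array, with a difference of 0.59 and 1.45 at day 4, and neither differed by more than 0.09 at day 7. At day 14 they were opposite, 0.70 on the first and -1.08 on the second. Between days 4 and 14 the first gave 1.43 ± 0.37 (SE, adjusted p = 0.0780, limma) and the second 0.76 ± 0.56 (adjusted p = 0.470). The second gave 1.63 without the beta-TCP day 14 array, with day 14 then resting on the control array alone. Between days 4 and 7 the second gave 1.73 ± 0.56 (adjusted p = 0.304, limma), with 2.50 in the control and 0.96 with beta-TCP. Without the beta-TCP day 14 array, with 1 residual degree of freedom, it passed (adjusted p = 0.00917, limma), where 7.34% of all probe sets did.

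IGFBP3, the main carrier of IGF in blood, had 1 probe set and did not pass the filter. Its 6 values lay between 0.125 and 0.385, and its differences between -0.15 and 0.20. No statement on its regulation can be made at this signal.

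**Figure D3:**
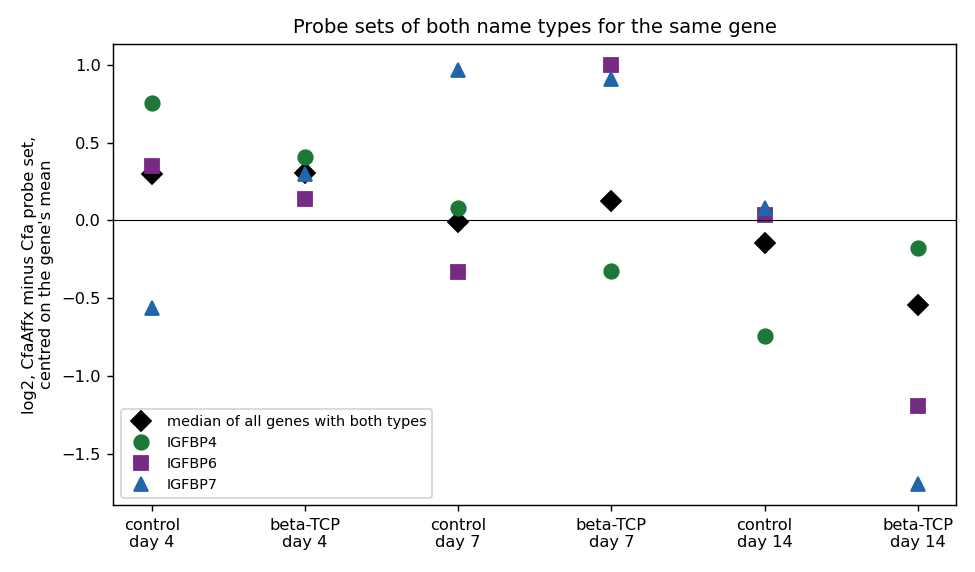
Log2 difference between the CfaAffx and the Cfa probe set of a gene on each array, centred on the gene's mean over the 6 arrays, for the 3 binding proteins with both types above the filter and for the median of 3748 genes. The median was lowest on the beta-TCP day 14 array (-0.55), where IGFBP7 lay at -1.70 and IGFBP6 at -1.20.

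The 2 probe sets of IGFBP6 and of IGFBP7, which had opposite signs at day 14, differ in name type, while those of IGF1 also had opposite signs within the Cfa type and those of IGFBP4 within the CfaAffx type. Over 3748 genes with both types above the filter, the CfaAffx level less the Cfa level, centred on each gene's mean, was 0.30 (control) and 0.31 (beta-TCP) for the median gene at day 4. Day 7 gave -0.01 and 0.12, and day 14 gave -0.15 and -0.55. On the beta-TCP day 14 array IGFBP7 lay at -1.70, IGFBP6 at -1.20 and IGFBP4 at -0.18. The 3 member probe sets at least 2-fold lower at day 14 (IGFBP2, the second of IGFBP6 and the second of IGFBP7) are all of the CfaAffx type. On the Cfa type, IGFBP6 and IGFBP7 had 0.18 and 0.70. The part of the probe set type in these differences was not tested, and IGFBP2 has no probe set of the Cfa type here.

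Of the 19 probe sets, 15 of 8 genes passed the filter, IGFBP3 and 3 of IGF1R being below it. At day 4, 4 of the 15 were at least 2-fold higher with beta-TCP (IGFBP2, IGFBP4, IGFBP5 and IGFBP7, 1 probe set each) and 0 lower, where 4.31% of all probe sets tested were higher and 2.96% lower. Their median difference was 0.59, against 0.15 over all probe sets. At day 7, 3 were higher (both of IGF1, and IGFBP2) and 1 lower (IGFBP6), against 3.17% and 3% of all, with medians of 0.21 and -0.04. At day 14, 0 were higher and 3 lower, against 3.89% and 16.2%, with medians of -0.06 and -0.22. Below the filter, 1 probe set of IGF1R was past 2-fold, at day 14. These counts use the scale log2(value + 1). By the plain ratio at day 4, IGF2 was 4.61 times lower with beta-TCP and the second IGF1 probe set 3.20 times higher. At day 7 the third IGFBP5 probe set was 3.28 times and the third IGFBP4 probe set 2.02 times higher. The IGF1R probe set above the filter was 3.29 times lower on that day. At day 14 IGF2 was 2.14 times higher, the third IGFBP4 probe set 4.50 times lower and IGF1R 2.09 times lower. None of these is counted. Probe sets of 1 gene are not independent, and the counts describe these arrays.

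No member passed for the average beta-TCP effect (0 of 15, limma), as for all 25608 probe sets (0%). At an unadjusted p under 0.05 there was 1 member, IGF1, and 1057 probe sets in all (4.13%). For day 7 minus day 4, 0 of 15 members passed (0% of all), with 6 at an unadjusted p under 0.05 against 11% of all. These were 2 probe sets each of IGFBP4 and IGFBP6 and 1 each of IGFBP5 and IGFBP7, and all 6 were higher at day 7. Without the beta-TCP day 14 array 5 of them passed, where 7.34% of all probe sets did. For day 14 minus day 4, 3 members had an unadjusted p under 0.05, the called IGFBP4 among them, against 21.7% of all. For day 14 minus day 7, 0 members passed (0.0117% of all), with 1 at an unadjusted p under 0.05, against 10.3% of all.

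Within each treatment, the days differed as follows among the 15 probe sets, as a description of single arrays. From day 4 to day 7 the control had 6 at least 2-fold higher and 0 lower (13.6% and 5.68% of all), and beta-TCP had 3 and 0 (4.71% and 2.69%). From day 4 to day 14 the control had 8 and 0 (15% and 9.38%), and beta-TCP had 4 and 0 (8.43% and 21.3%). From day 7 to day 14 the control had 3 and 1 (3.95% and 6.55%), and beta-TCP had 1 and 3 (4.39% and 19.7%). The first IGFBP6 probe set differed by 2.57 from day 4 to day 7 in the control. IGFBP2 differed by 2.48 from day 7 to day 14 in the control, and with beta-TCP by 1.54 from day 4 to day 7 and by -1.83 from day 7 to day 14.

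Other genes of the pathway were read on the probe set with the highest mean. Of 62 with a probe set, 43 passed the filter, and 0 of these passed for the average beta-TCP effect. Of the 43, day 4 had 2 past 2-fold upwards and 1 downwards, day 7 had 2 and 1, and day 14 had 2 and 4. Their median differences were 0.06, -0.05 and -0.39. Over all probe sets the medians were 0.15, -0.04 and -0.22, and 4.31%, 3.17% and 3.89% were past 2-fold upwards and 2.96%, 3% and 16.2% downwards. For day 14 minus day 4, 1 rose and 1 fell, 2 of 43, where 3.27% of all probe sets passed. The adaptor gene SHC1 rose by 1.82 (adjusted p = 0.0379, limma), and PLAU, urokinase, one of the proteases that can cleave binding proteins, fell by 3.41 (adjusted p = 0.00983). Without the beta-TCP day 14 array, which leaves the control array alone at day 14, SHC1 differed by 1.69 and PLAU by -2.91. SHC1 has 5 probe sets, and the one with the next highest mean read 23.6 and 42.9, 93.3 and 83.2, and 73.1 and 142 on the 3 days (control, beta-TCP). The other 3 were weak, and 2 of them did not share the course. One (CfaAffx) read 1.06 and 1.35 at day 4 against 1.51 and 1.05 at day 14, and another (Cfa) read 0.661 and 0.879 against 1.59 and 0.113.

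On the growth hormone side, GHR, the receptor, read 3.40 and 4.62 at day 4 (control, beta-TCP), 3.34 and 16.1 at day 7, and 12.9 and 18.3 at day 14. As for IGF1, the control arrays of days 4 and 7 were the lowest, and the largest gap was at day 7 (1.98, a ratio of 4.83). Its other probe set gave 1.63 at day 7 and had its highest value, 9.25, on the beta-TCP day 7 array. At day 14 the probe sets had opposite signs, 0.47 on the first and -0.28 on the other. The average effect was 0.94 ± 0.38 (SE, 3 pairs, adjusted p = 1, limma).

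**Figure D4:**
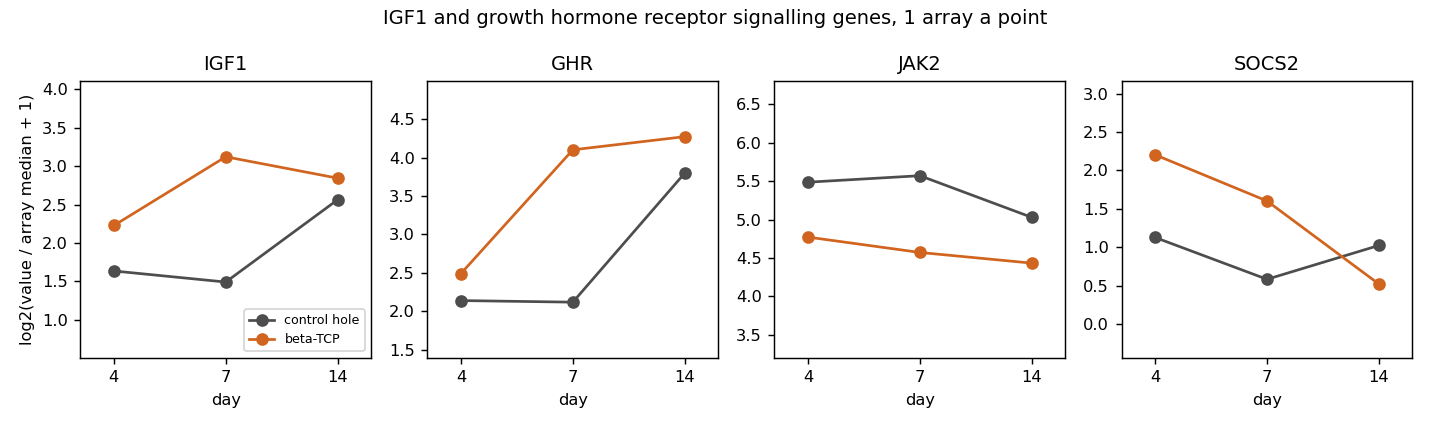
Levels of IGF1 (first probe set), GHR, JAK2 and SOCS2 as log2 of the value over the array median plus 1, against day, with 1 array a point and lines joining different specimens. GHR and IGF1 are both low on the control arrays of days 4 and 7, while JAK2 lies lower with beta-TCP on each day.

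Genes downstream of that receptor did not follow one order. JAK2, the kinase that GHR uses, was lower with beta-TCP on each day, with values of 43.8 and 26.3, 46.5 and 22.8, and 31.6 and 20.6, and an average of -0.77 ± 0.29 (SE, adjusted p = 1, limma). Its second probe set differed by -0.47, -0.61 and -2.48. STAT5B, the transcription factor downstream of JAK2, averaged -0.70 ± 0.30, with -0.98, -0.71 and -0.41 on the 3 days. The other STAT5B probe set differed by -0.65, -0.04 and -1.51. SOCS2, a target of growth hormone that restrains its signal and is named here after its values were seen, differed by 1.07 and 1.02 at days 4 and 7 and by -0.50 at day 14.

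Among the other groups, IGF2R, which takes up IGF2 for degradation, differed by -0.05, -0.66 and -0.39, and LRP1 by 0.06, -0.07 and -0.56. IGF2R has 3 probe sets, and the others differed by -0.06, -0.78 and -0.40 (Cfa) and by -0.04, 0.04 and -1.65 (CfaAffx). Of the carriers, IGFALS differed by -0.38, 0.99 and 1.15 on the 3 days at values of 0.053 to 3.06, and IGFBP1 averaged -0.40 ± 0.31. CRIM1, listed as related to the binding proteins and not as a carrier, averaged 0.52 ± 0.29. The proteases ADAM9 and PLAT averaged -0.40 ± 0.35 and -0.17 ± 0.35. HTRA1, a secreted protease that cleaves binding proteins and is named here after its values were seen, differed by 1.49 at day 4, from 35.4 to 101, and by -0.27 and -0.81 later. Its other probe set differed by 1.43, 0.29 and -2.48, with the opposite sign at day 7. Of the adaptors, IRS2 averaged 0.70 ± 0.31 and GRB2 -0.61 ± 0.30. Of the kinase cascade, EIF4EBP1, the translation repressor downstream of mTOR, averaged -0.68 ± 0.32, PDPK1 -0.35 ± 0.33 and PIK3CB -0.34 ± 0.31. The RNA-binding protein gene IGF2BP3 averaged 0.02 ± 0.29. These averages are from limma's fit with SE over 3 pairs, and none passed (adjusted p = 1).

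Markers of other cells differed between the same arrays. For stratified epithelium, the summed value of 6 markers at day 4 was 220 in the control and 19.8 with beta-TCP, and 6 of 6 were at least 2-fold lower. On the other 4 arrays it ranged from 14.4 to 66.4. For neutrophils, 4 markers summed to 1686 and 910 at day 4, 1424 and 965 at day 7, and 294 and 104 at day 14. For osteoclasts, 5 markers summed to 433 and 573, 2195 and 1127, and 785 and 1496, so the control day 7 array, where IGFBP6 was highest, was also the highest here. That array was the highest too for the summed markers of endothelium (333.5), macrophages (454.3) and T and B cells (27.2), and for the erythroid marker (4.31). For osteoblasts and bone matrix, 10 markers summed to 2180 and 2582, 3153 and 3296, and 3690 and 6214. These sums are carried by a few abundant genes. At day 7, on the arrays where IGF1 and IGFBP2 differed most, 4 of the 10 were at least 2-fold higher with beta-TCP and 0 lower, namely IBSP (2.16), ALPL (1.88), BGLAP (1.85) and MEPE (3.02). The other 6 differed by -0.21 (COL1A2) to 0.47 (DMP1), and 3.17% of all probe sets were at least 2-fold higher on that day. For cartilage, 5 markers summed to 2.18 and 8.47, 7.85 and 36.3, and 19.9 and 18.7. Of the 3 above the filter, 2 were at least 2-fold higher with beta-TCP at day 4, 3 at day 7 and 1 at day 14, and COL2A1, a defining gene of cartilage, was below the filter. For fibroblasts, 5 markers summed to 959 and 1541, 2014 and 2107, and 3258 and 3231. This sum was lowest on the control day 4 array, as IGFBP7, the first 2 IGFBP4 probe sets and the first IGFBP5 probe set were. The sums for osteoblasts, osteoclasts, cartilage, smooth muscle, endothelium (61.7) and adipocytes (17.3) were lowest on that array too. Smooth muscle and pericyte markers summed to 99.2 and 237, 342 and 424, and 693 and 977. No marker read was at the lowest value of an array. The part of these cells in the values of the IGF genes was not tested.

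Likeness was described by Pearson's r over the 6 arrays among 3968 named genes with an SD of at least 0.5, which share arrays, day and scaling, and carries no test. Each gene was read on its probe set with the highest mean only. The other probe sets of the members, several with a different course, were not compared. IGF1 was most like EPHB3 (0.973), TRIM2 (0.972) and COL14A1 (0.964). IGFBP2 was most like PDGFRL (0.964), PDE5A (0.962) and CPA3 (0.957). IGFBP4 was most like LHFPL6 (0.998), LZTFL1 (0.997) and FHOD3 (0.996), and IGFBP5 like TRIB2 (0.999), PRSS23 (0.990) and DSTN (0.986). IGFBP6 was most like PCNX3 (0.983), PLA2G15 (0.973) and DYRK3 (0.971). IGFBP7 was most like CXXC5 (0.999), the bone matrix gene SPARC (0.998) and THAP7 (0.996). For IGF2 they were HSD17B14 (0.986), LMX1A (0.968) and CARM1 (0.962), and for IGF1R BBOX1 (0.945), TSC22D3 (0.939) and NSUN5 (0.922). For IGFBP3, whose SD was only 0.101, they were HSF1 (0.993), INO80E (0.966) and DBNDD2 (0.963).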

How the data were processed

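RNA from 6 specimens, each prepared from 100 ng of total RNA per the labels' protocols, was measured on 1 array a group. For days 4 and 7 the authors deposited a ratio of signal to the array's own median (medians of 1, lowest value 0.01). For day 14 they deposited an undivided intensity (medians of 12 and 6.2). Units were read from the values, and the algorithm is not given in the sources used here. Each array was divided by its median, and log2(value + 1) was taken. Left out were 180 probe sets in 90 pairs that share a stem and end in _a_at and _at, none of them a member. A mean at the 40th percentile left 25608 probe sets. limma 3.58.1 (R 4.3.3) fitted day and treatment to 6 arrays with 2 residual degrees of freedom, and two-sided p-values were adjusted by Benjamini-Hochberg (threshold 0.05). Its residual holds the change of the treatment difference between days together with specimen and array noise. The number of arrays limits the precision. The fit was run on data simulated from its own additive model, which cannot show how it handles treatment differences that change between days.

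Gene names came from a platform table in which 29254 probe sets have 1 gene, 439 several and 13167 none. By gene ID 27680 matched RefSeq (UU_Cfam_GSD_1.0). The members, the pathway and marker lists and the tests were chosen with earlier results of these data known. Named were all members, pathway genes that passed or up to 3 a group with the largest average difference, and the 3 genes most like each member, passing over genes named only by an identifier. Listed genes without a matching probe set are not reported here. Alternatives covered the pseudocount, scaling, filter, probe set choice and days.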

Additional observations from a re-analysis of the deposited data

Results flagged for a closer look

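IGFBP2 and the second IGFBP7 probe set were at least 2-fold different in opposite directions on 2 days. With 1 array a group the differences between days were not tested. For IGFBP2 the beta-TCP difference was 1.37 at day 4 and 2.93 at day 7 but -1.38 at day 14, a shift of -2.74 and -4.30. For IGFBP7 (CfaAffx.4359.1.S1_s_at) it was 1.45 at day 4 and -1.08 at day 14, a shift of -2.52, whereas the other IGFBP7 probe set had 0.59 and 0.70. The -1.08 fell short of 2-fold with quantile normalization (-0.59) and 90th percentile scaling (-0.64). Of all 25608 probe sets, 1.52% were at least 2-fold different in opposite directions at days 4 and 14, 1.3% at days 7 and 14 and 0.203% at days 4 and 7.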

How the results depend on the processing

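Treatments were compared within day throughout, and no replicate block could be added, since each group holds 1 array. The number of member probe sets at least 2-fold different was 4, 4 and 3 on days 4, 7 and 14. It was 1, 1 and 1 with a pseudocount of 16, 8 at day 14 with values as deposited (60% of all probe sets), 1 at day 14 with 1 probe set a gene, 1 at day 4 and 0 at day 14 with Cfa probe sets, and 1 at day 7 with CfaAffx. No single-day difference past 2-fold changed sign, and of 93 such values under alternatives 12 fell under 2-fold. Filter and probe set choices leave such a value as it is, and a pseudocount cannot turn its sign. The deposited values of days 4 and 7 were already divided by the median. Only the remaining scalings could have turned a sign.

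For the average beta-TCP effect, 0 members became 1 (IGFBP2) without the day 14 pair or, chosen after seeing the data, without the beta-TCP day 14 array. For day 7 minus day 4, 0 became 5 under each of these. For day 14 minus day 4, 1 became 0 with a pseudocount of 0.25 or 16 or with no filter. The count was also 0 with CfaAffx probe sets, which leave out the called IGFBP4 probe set, as it is of the Cfa type. It became 14 with values as deposited (78.7% of all called). For day 14 minus day 7, 0 became 11 as deposited (80.3%). Deposited values set the scale of day 14 apart, which enters both counts.

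The average effect changed sign in 11 of 182 values, none called. Filter and probe set choices leave its estimate as it is, so under those it could not turn. IGF2 gave 0.00066 at the 90th percentile scaling, 0.18 without day 4 and 0.0085 without day 7. Without day 7, the first IGFBP6 probe set gave 0.30, the third IGFBP5 -0.10 and IGFBP2 -0.0051. As deposited, the third IGFBP5 gave -0.11 and the second IGFBP7 -0.23, the latter -0.58 without day 4. The third IGFBP4 gave 0.22 without day 14 or its beta-TCP array. The second IGFBP6 probe set, day 14 minus day 7, gave 0.88 as deposited against -1.28.

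The median of all probe sets for beta-TCP minus control lay at 0.149, -0.0392 and -0.215 on the 3 days, and at -0.0318, 0.0281 and 0.0922 with 90th percentile scaling.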
